A study of Mus musculus with 4 samples.

Results

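The kinesin family was followed in aortas of mice with a knockout of GGPPS, the enzyme geranylgeranyl diphosphate synthase encoded by Ggps1, and in aortas of wild-type mice. Its members were taken by gene symbol, as every Kif gene with a number and at most 1 letter after it, every Kifc gene with 1 digit and every kinesin light chain gene Klc with 1 digit. This rule found 44 genes among the 24344 distinct symbols of the tables. By their known main role they were divided into 13 mitotic kinesins, 15 transport kinesins, 4 kinesin light chains and 12 other kinesins. RNA of 3-week-old C57BL/6 mice was sequenced in 2 knockout libraries and 2 wild-type libraries. Every library is labelled as aorta of both sexes. The labels name neither the allele nor the cell type of the deletion nor the number of animals in a library. Values are FPKM, which relate the fragments of a gene to the length of its transcript and to the size of the library.

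Kinesins are motor proteins that use ATP to move along microtubules or to take microtubule ends apart. Mitotic kinesins build the spindle, move chromosomes and complete cytokinesis, and most of them are made in dividing cells, with their transcripts highest between S phase and mitosis. Transport kinesins carry vesicles, mitochondria and other cargo in resting and dividing cells alike. In the conventional motor, kinesin-1, light chains bind the cargo while the heavy chains, encoded by the Kif5 genes, walk. Vascular smooth muscle of an adult artery divides rarely, whereas the aorta of a young mouse is still growing.

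Many genes of mitosis carry a promoter element called CHR, for cell cycle genes homology region, with the core letters TTTGAA, and it is known to bind the DREAM and MuvB protein complexes that hold these genes off in resting cells and switch them on in G2. Promoter windows of 300 bases, 250 before and 50 from the gene start on, were available from RefSeq (build GRCm38.p6) for 35 of the 44 members, 12 of them mitotic. TTTGAA was searched on both strands, so that TTCAAA counts as well, together with CCAAT and its complement ATTGG, the box bound by NF-Y. At no match in a kinesin promoter did the 2 motifs share letters. A TTTGAA match was present in 10 of the 12 mitotic kinesin promoters, in 2 of the 23 other promoters (Kif26b and Kif27) and in 18.1% of the 27025 genes with a promoter entry. Within 30 bases of the gene start it was found in 8 mitotic promoters, in 1 of the other 23 (Kif26b) and in 3.15% of all genes. None of the 10 transport kinesin promoters held it. CCAAT was less uneven, with 8 of 12 mitotic and 9 of 23 other promoters against 37.9% of all genes. These motifs were chosen with the expression values known, and a match is a description of the letters only.

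The stretches around the match in those 8 genes are shown to make the shared core visible among sequences that otherwise differ. Each is printed 5' to 3' on the strand that reads TTTGAA, which is in capitals, with coordinates in GRCm38.p6. In Kif20b a second match starts 14 bases from the gene start, directly after the first, and it is left in lower case.
Kif4 (chrX:100626069-100626098, plus strand): cgcctctgggatcaaTTTGAAacttggcgg
Kif11 (chr19:37376354-37376383, minus strand): attccgcgcctcaatTTTGAAaaatggaga
Kif15 (chr9:122951053-122951082, minus strand): caagatggccgcagaTTTGAAtttggcgcc
Kif18b (chr11:102925107-102925136, minus strand): gagcggaccggctagTTTGAAcgcgccgcg
Kif20b (chr19:34922350-34922379, plus strand): gccgagccgccattgTTTGAAtttgaaaac
Kif22 (chr7:127042417-127042446, plus strand): ggcccgcttctctctTTTGAAttaccgggg
Kif23 (chr9:61946783-61946812, minus strand): ccgctgattggcctgTTTGAAatgcgccgg
Kifc1 (chr17:33890612-33890641, plus strand): gccacacccgccactTTTGAAtttcaacct

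The full windows of 3 mitotic kinesins and of Kif1a, a transport kinesin with a large change in the same direction, show where the elements lie. Capitals mark TTTGAA or TTCAAA and CCAAT or ATTGG. Each is written 5' to 3' on the strand of the gene.
Kif11 (chr19:37376132-37376431, plus strand): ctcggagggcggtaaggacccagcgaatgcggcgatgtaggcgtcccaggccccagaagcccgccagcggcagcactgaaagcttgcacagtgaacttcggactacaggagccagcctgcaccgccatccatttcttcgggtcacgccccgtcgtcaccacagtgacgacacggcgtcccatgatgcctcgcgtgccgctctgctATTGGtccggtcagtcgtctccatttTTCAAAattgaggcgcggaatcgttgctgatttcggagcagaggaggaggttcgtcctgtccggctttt
Kif23 (chr9:61946750-61947049, minus strand): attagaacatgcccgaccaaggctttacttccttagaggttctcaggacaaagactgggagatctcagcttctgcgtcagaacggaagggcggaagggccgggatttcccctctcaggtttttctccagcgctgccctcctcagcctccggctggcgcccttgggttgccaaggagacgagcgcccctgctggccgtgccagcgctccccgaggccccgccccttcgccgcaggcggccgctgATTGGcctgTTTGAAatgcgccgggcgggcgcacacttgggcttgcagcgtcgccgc
Kifc1 (chr17:33890584-33890883, minus strand): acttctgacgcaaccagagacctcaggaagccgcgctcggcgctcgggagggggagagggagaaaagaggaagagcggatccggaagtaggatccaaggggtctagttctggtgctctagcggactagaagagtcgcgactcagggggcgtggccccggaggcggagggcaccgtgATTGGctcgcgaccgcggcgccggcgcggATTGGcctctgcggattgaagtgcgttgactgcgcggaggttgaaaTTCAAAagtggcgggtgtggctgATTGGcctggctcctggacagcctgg
Kif1a (chr1:93101825-93102124, minus strand): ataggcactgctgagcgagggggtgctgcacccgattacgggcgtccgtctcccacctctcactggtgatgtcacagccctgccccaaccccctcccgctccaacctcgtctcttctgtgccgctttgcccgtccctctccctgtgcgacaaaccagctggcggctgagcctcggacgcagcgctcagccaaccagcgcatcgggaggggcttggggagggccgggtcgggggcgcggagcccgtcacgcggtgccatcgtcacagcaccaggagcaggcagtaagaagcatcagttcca

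In Kif11 a single ATTGG starts 45 bases and a single TTCAAA 19 bases before the gene start. Kif23 has ATTGG 7 bases before the start and TTTGAA from base 3 on, so that both sit in one short segment. Kifc1 has 3 CCAAT-type boxes, starting 74 and 45 bases before the gene start and at base 25 after it, around a TTCAAA at base 2. The Kif1a window held neither motif.

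**Figure D1:**
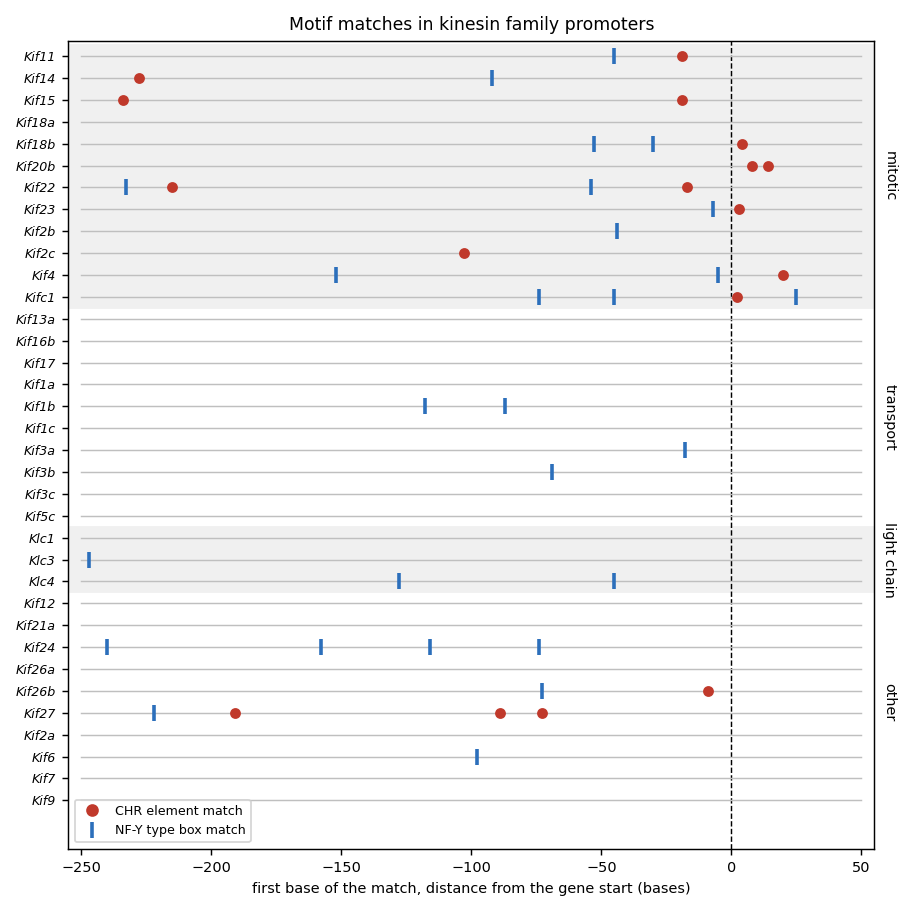
Positions of TTTGAA-type matches (CHR element, circles) and CCAAT-type matches (NF-Y type box, bars) in the promoter windows of 35 kinesin family genes, by class; the horizontal axis gives the first base of each match as its distance in bases from the gene start. In 8 of the 12 mitotic genes a circle lies within 30 bases of the start, and the 10 transport genes have none.

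The whole table set the scale for these genes. FPKM summed to 611767 and 632918 in the knockout libraries and to 515927 and 520478 in the wild-type libraries. The number of sequenced fragments is not known, so precision rests on the spread between 2 libraries of each genotype. Ggps1 was at 1.18 and 1.07 FPKM in knockout, against 8.96 and 10.6 FPKM in wild type (log2 fold change -2.34, SE 0.13, limma adjusted p = 3.5e-09), so the libraries matched their labels. The 6 smooth muscle markers were present in all libraries, and all 6 were lower in knockout, with a summed level of 4000 and 5272 FPKM against 15572 and 17453 FPKM in wild type. Of 5 endothelial markers tested, 5 were lower, and of 6 fibroblast markers 5 were lower and 1 higher. Of 7 macrophage markers, 6 were higher, with a summed level of 220 and 191 FPKM in knockout against 28.0 and 30.6 FPKM in wild type. Among the higher ones, Adgre1 and Cx3cr1 were under 1 FPKM in both wild-type libraries and were tested through their knockout values alone. Of all tested genes like that, 97.4% were called higher. T and B cell markers summed to less than 0.6 FPKM in each library. Schwann cell markers gave 1 higher and 2 lower of 3 tested, and the 1 adipocyte marker tested was lower. These marker counts stand beside 35.2% higher and 30.6% lower over all genes tested.

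Fold changes below are knockout minus wild type on the log2(FPKM + 1) scale, which understates changes of weakly expressed genes, and folds in words are ratios of mean FPKM. A gene was tested if 2 or more libraries reached 1 FPKM. With a threshold of 0.05 on the limma adjusted p, 35.2% of the 12314 genes were called higher in knockout and 30.6% lower, so single calls were common in these libraries. Of the 44 kinesin family genes, 32 were tested, 15 were higher and 7 lower. With column totals made equal, which shifted the median of all tested genes to -0.20 from 0.03, the split was 13 higher and 11 lower in the family and 3116 higher and 5580 lower over all genes, beside 4332 higher and 3764 lower as reported.

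The mitotic kinesins were higher in knockout aorta. Every mitotic kinesin detected, 12 of the 13, had both knockout libraries above both wild-type libraries, an order shown by 38.1% of the 17542 genes above 0 in at least 1 library. Their summed level was 40.8 and 45.8 FPKM in knockout, against 6.48 and 4.98 FPKM in wild type. This is 43.3 ± 3.57 FPKM in knockout and 5.73 ± 1.06 FPKM in wild type (mean ± SD, n = 2 each), a ratio of means of 7.56. The ratio of single genes lay between 3.17, for Kif18a, and 12.6, for Kif2c. In bulk tissue, more cells in division and more transcript in each dividing cell cannot be told apart.

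Low wild-type levels bear on how these genes were counted. The highest wild-type value of any mitotic kinesin was 1.26 FPKM and the lowest 0.102 FPKM, whereas knockout values ran between 0.692 and 8.32 FPKM. Of the 13, 10 passed the filter, and all 10 were called higher, but 8 of these were under 1 FPKM in both wild-type libraries and passed through the knockout libraries alone. Among all 588 tested genes of that kind, 97.4% were called higher, so this count carries little. Kif20a, at 1.12 and 0.739 FPKM in wild type, also needed a knockout library to pass. In the fit with no filter on low values, 12 of the 12 detected mitotic kinesins were higher, where 26.3% of 17542 genes were. The adjusted p of the 12 lay between 0.000216 and 0.00352 there. The 26.3% includes the genes that failed the filter, and the share was 35.2% of the 12314 that passed. It is therefore not a background for genes at the levels of these kinesins.

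Kinesins that form the bipolar spindle were among them. Kif11, the Eg5 motor that pushes the spindle poles apart, was at 3.89 and 5.11 FPKM in knockout and at 0.7496 and 0.423 FPKM in wild type (log2 fold change 1.79, SE 0.15, limma adjusted p = 1.67e-07). Kif15, which can stand in for Kif11 in spindle assembly, was at 1.13 and 1.06 FPKM in knockout and at 0.158 and 0.102 FPKM in wild type (log2 fold change 0.89, SE 0.12, limma adjusted p = 1.74e-05). By ratio of means the change of Kif15, 8.41-fold, was close to that of Kif11, 7.68-fold, although its log2 value was lower because its levels lie near the pseudocount. Kifc1, a minus-end motor that clusters spindle poles, was at 7.47 and 8.32 FPKM in knockout, against 1.26 and 1.08 FPKM in wild type (log2 fold change 2.04, SE 0.13, limma adjusted p = 1.09e-08). It was the most abundant mitotic kinesin in all 4 libraries. Kifc5b, a near-identical copy of Kifc1, was listed at 2.44 and 2.39 FPKM in knockout and at 0.784 and 0.816 FPKM in wild type, so the share of reads that belongs to each copy is uncertain.

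Motors that act on chromosomes and microtubule ends included the 2 genes with the largest ratios. Kif22, a chromokinesin that pushes chromosome arms toward the spindle equator, was at 6.35 and 6.62 FPKM in knockout, against 0.74999 and 0.801 FPKM in wild type. Its log2 fold change was 2.08 (SE 0.12, limma adjusted p = 6.62e-09). Kif4, the chromokinesin that works with Prc1 on the central spindle, was at 2.75 and 2.93 FPKM in knockout and at 0.275 and 0.187 FPKM in wild type (12.3-fold, log2 fold change 1.64, SE 0.12, limma adjusted p = 6.15e-08). Its exons share 15.1% of their bases with Pdzd11 on the other strand, which was at 32.8 and 36.0 FPKM in knockout and 17.8 and 19.5 FPKM in wild type, and the use of strand in counting was not given in the sources used here. Kif2c, which takes microtubules apart at centromeres, was at 3.97 and 4.02 FPKM in knockout and at 0.433 and 0.201 FPKM in wild type (12.6-fold, log2 fold change 1.93, SE 0.13, limma adjusted p = 2.37e-08). Its relative Kif2b was listed at 0 in the 4 libraries, as was the elastin gene Eln, which aortic cells use heavily, so a 0 in these tables is only a listed value.

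The kinesin-8 pair that controls the length of spindle microtubules differed in size of change. Kif18b was at 2.46 and 2.27 FPKM in knockout, against 0.366 and 0.213 FPKM in wild type, 8.19-fold (log2 fold change 1.39, SE 0.12, limma adjusted p = 4.03e-07). Kif18a, which brings chromosomes to the equator, was at 0.985 and 1.22 FPKM in knockout and at 0.423 and 0.272 FPKM in wild type, 3.17-fold. It fell short of the filter and was higher in the fit without one (log2 fold change 0.64, SE 0.09, limma adjusted p = 0.00352). The difference between the 2 genes was not tested. Of the 12 mitotic promoters, only the Kif18a window held neither motif. Kif2c, with the largest ratio of the class, 12.6-fold, had no CCAAT-type match. Its TTTGAA-type match lay more than 30 bases from the gene start. Kif14, at 4.10-fold, had both motifs, with its TTTGAA-type match more than 30 bases away as well. A relation between the motifs and the size of the change was not tested.

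Kinesins of cytokinesis rose as well. Kif23, the motor of the centralspindlin complex, was at 4.07 and 5.24 FPKM in knockout, against 0.475 and 0.513 FPKM in wild type (log2 fold change 1.91, SE 0.13, limma adjusted p = 3.46e-08). Kif20a, which brings the chromosomal passenger complex to the midzone, was at 5.15 and 6.11 FPKM in knockout and at 1.12 and 0.739 FPKM in wild type (log2 fold change 1.78, SE 0.14, limma adjusted p = 1.01e-07). Of its exon bases 29.3% are shared with Cdc23 on the other strand, which was at 14.7 and 15.8 FPKM in knockout and 18.2 and 18.6 FPKM in wild type. Both knockout libraries stood well clear of both wild-type libraries for each motor. Kif20b, which acts late in cytokinesis, was at 1.84 and 2.17 FPKM in knockout and at 0.320 and 0.253 FPKM in wild type (log2 fold change 1.22, SE 0.12, limma adjusted p = 1.27e-06). Kif14, a partner of citron kinase at the cleavage furrow, was at 0.692 and 0.741 FPKM in knockout, against 0.153 and 0.196 FPKM in wild type. It was not tested under the filter and was 0.55 higher without one (SE 0.05, limma adjusted p = 0.001).

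**Figure D2:**
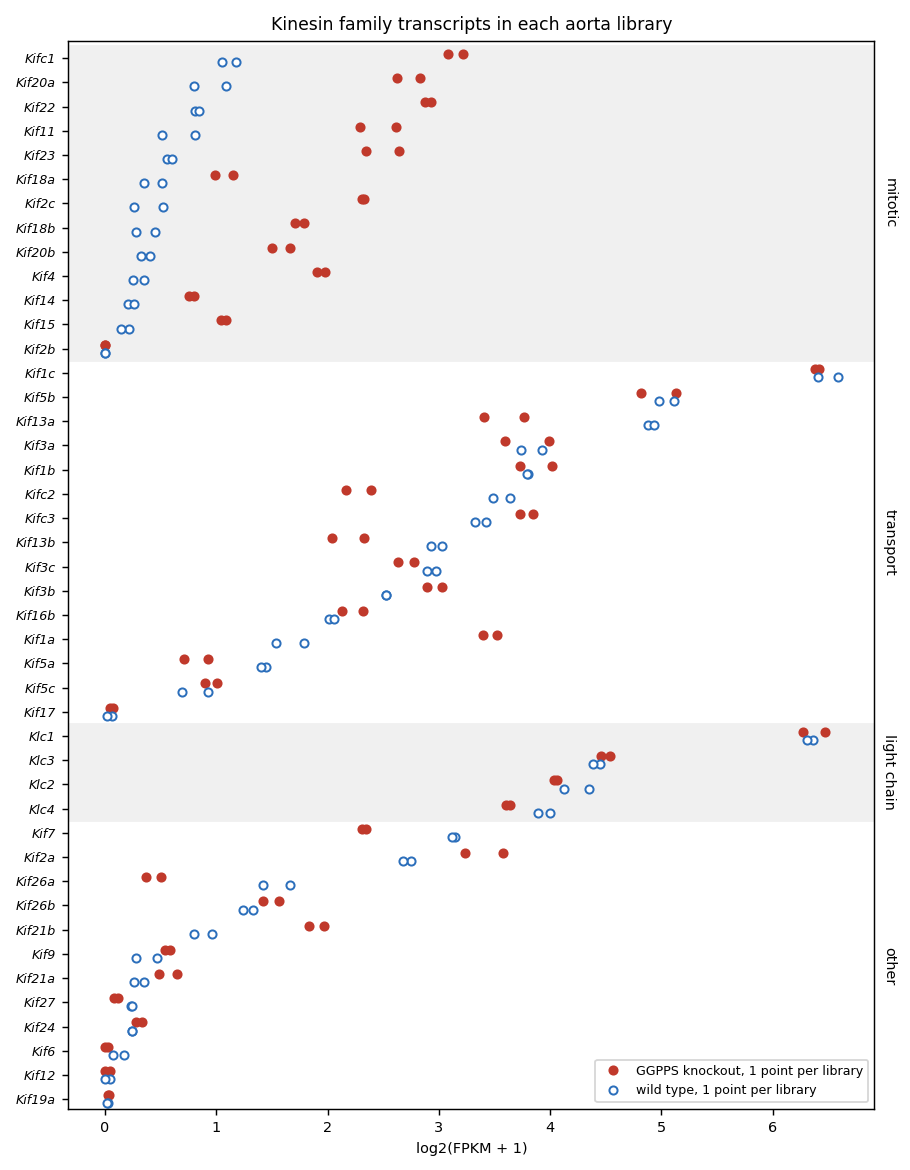
Levels of the 44 kinesin family genes as log2(FPKM + 1), with 1 point for each knockout library (filled) and each wild-type library (open), grouped by class and ordered by mean wild-type level. In 12 of the 13 mitotic kinesins the knockout points lie to the right of the wild-type points, while the transport kinesins include genes on either side and genes whose points overlap.

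Genes of proteins that these motors work with were mostly higher too. Of 17 partners in a list of spindle and midzone proteins, 16 were tested, of which 14 were higher (87.5%) and 0 lower, beside 35.2% and 30.6% of all genes. Of these 16, 5 were under 1 FPKM in both wild-type libraries and passed the filter through the knockout libraries alone. Among all tested genes of that kind, 97.4% were called higher. Others, among them Cdca8 at 1.28 and 0.699 FPKM in wild type, also needed a knockout library to pass. In the fit without a filter 15 of 17 were higher, where 26.3% of all genes were. As for the mitotic kinesins, that share is not a background for partners at such low wild-type levels. Their median log2 fold change was 1.95, against 0.03 for all tested genes. Birc5, the survivin subunit of the chromosomal passenger complex, was at 17.9 and 16.9 FPKM in knockout and at 1.75 and 1.76 FPKM in wild type (log2 fold change 2.74, SE 0.12, limma adjusted p = 4.14e-10). Plk1, the kinase that regulates Kif20a and Kif23, was 6.27-fold higher, and Racgap1, the other subunit of centralspindlin, was 6.65-fold higher. Cdca8, another passenger subunit, was 10.5-fold higher. Cenpe, a kinetochore kinesin whose symbol lies outside the Kif names, was at 1.67 and 2.00 FPKM in knockout and at 0.221 and 0.136 FPKM in wild type (log2 fold change 1.26, SE 0.12, limma adjusted p = 9.58e-07). It passed the filter through the knockout libraries alone. Mapre1, a protein of growing microtubule ends in all cells, was at 27.5 and 29.96 FPKM in knockout and at 27.6 and 26.0 FPKM in wild type and did not pass the test (limma adjusted p = 0.439). Anln, a scaffold of the cleavage furrow, did not pass either, at 15.7 and 19.5 FPKM in knockout and 15.6 and 15.1 FPKM in wild type (limma adjusted p = 0.222).

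General proliferation genes gave ratios of similar size. Mki67 was at 4.94 and 6.19 FPKM in knockout and at 1.008 and 0.648 FPKM in wild type, 6.72-fold, and Top2a was 6.37-fold and Ccnb1 11.5-fold higher. Macrophage markers moved in the same libraries, with 6 of 7 higher, beside 35.2% of all genes. They summed to 220 and 191 FPKM in knockout against 28.0 and 30.6 FPKM in wild type. The part of macrophages in the rise of the mitotic kinesins was not tested. Erythroid markers summed to 82.2 and 235.5 FPKM in knockout and to 210 and 235.2 FPKM in wild type.

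Libraries of 1 genotype also differed from each other. In 9 of the 12 detected mitotic kinesins wild-type library 1 was above wild-type library 2, by up to 2.15-fold, and in 10 of the 12 knockout library 2 was above knockout library 1, by up to 1.31-fold. These gaps between single libraries were smaller than 3.17, the smallest ratio between genotype means, which is an unlike measure. For that gene, Kif18a, the nearest libraries of the 2 genotypes were at 0.985 FPKM in knockout and 0.423 FPKM in wild type.

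The transport kinesins changed in both directions. Of 15 genes, 13 were tested. The test called 3 higher (23.1%) and 4 lower (30.8%), against 35.2% and 30.6% of all genes tested, so the higher share was below the background and the lower share close to it. The contrast between the classes is given as a description, with no test of its own. Their median log2 fold change was -0.07, and its sign depended on the scaling, since it was 0.15 with trends on transcript length and GC content removed and -0.32 with column totals made equal. Summed over the class, the level was 191 and 208 FPKM in knockout, against 227 and 219 FPKM in wild type. The mitotic sum thus amounted to 21.3% and 22.0% of the transport sum in knockout and to 2.86% and 2.27% in wild type.

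**Figure D3:**
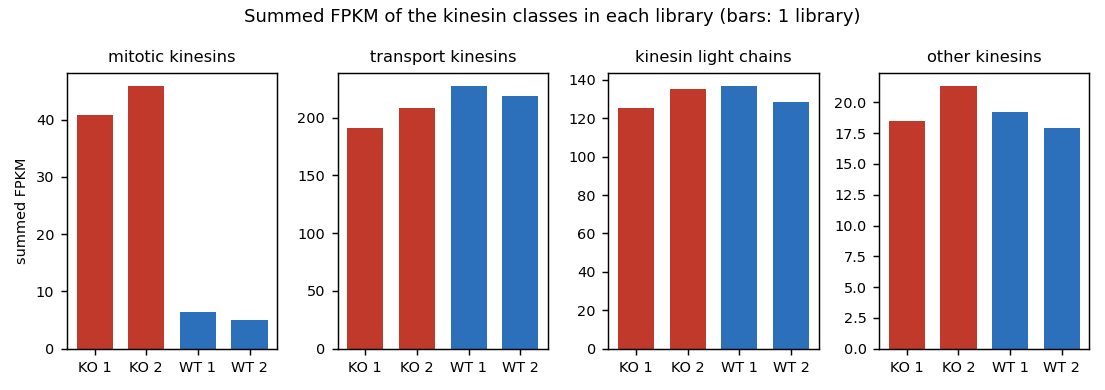
Summed FPKM of each kinesin class in each library, knockout left (red) and wild type right (blue), with bars starting at 0 and a separate scale for each class. The mitotic sum was 40.8 and 45.8 FPKM in knockout against 6.48 and 4.98 FPKM in wild type, while the transport sum was 191 and 208 FPKM in knockout against 227 and 219 FPKM in wild type.

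Transport kinesins have long transcripts, and several of their calls moved when the trends of each library on transcript length and GC content were removed. The longest annotated transcript had a median of 6404 bases for the transport kinesins and 3674 bases for the mitotic ones, against 3366 bases for all tested genes. Removing these trends left all 10 tested mitotic kinesins higher, with a median of 1.80 beside 1.79 as reported. For the transport class it gave 6 higher and 2 lower genes of 13, where 35.6% of all genes were higher and 29.3% lower. Calls of transport kinesins are therefore given with this value wherever it changed them.

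Kinesin-3 motors held both the most abundant transport gene and the one with the largest ratio of means. Kif1a, known as the neuronal carrier of synaptic vesicle precursors, was at 9.51 and 10.5 FPKM in knockout, against 1.91 and 2.45 FPKM in wild type, 4.59-fold (log2 fold change 1.80, SE 0.13, limma adjusted p = 5.66e-08). It was the only one of the 15 transport kinesins whose ratio reached the smallest ratio of the mitotic class. After removing the length and GC trends its log2 fold change was 2.36. Neuron markers beside it were uneven. Prph was higher, at 1.546 and 1.159 FPKM in knockout against 0.539 and 0.409 FPKM in wild type, and passed the filter through the knockout libraries alone. Tubb3, a beta tubulin, was at 17.6 and 22.2 FPKM in knockout and at 0.414 and 0.170 FPKM in wild type, and Uchl1, a ubiquitin hydrolase of neurons and other cells, at 616 and 593 FPKM in knockout and 79.6 and 76.1 FPKM in wild type. Snap25, Syt1, Elavl4, Nefl, Nefm, Th and Dbh were each at or under 0.204 FPKM in the 4 libraries, and Stmn2 was lower in knockout, at 1.90 and 2.69 FPKM against 3.76 and 3.71 FPKM in wild type. In all, 3 of the 4 tested neuron markers were higher and 1 was lower, beside 35.2% and 30.6% of all genes. Like Prph, Tubb3 passed the filter through the knockout libraries alone. Of all tested genes under 1 FPKM in both wild-type libraries, 97.4% were called higher. Of the 11 markers, 7 were too low to test. The 11 summed to 637 and 619 FPKM in knockout and to 84.4 and 80.5 FPKM in wild type, nearly all of it Uchl1, and their part in the level of Kif1a was not tested.

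The other Kif1 genes did not pass the test. Kif1c, which carries vesicles and integrins and is known to act at podosomes of vascular smooth muscle cells, was at 84.3 and 82.4 FPKM in knockout and at 95.0 and 84.1 FPKM in wild type. It made up 44.1% and 39.6% of the transport sum in knockout and 41.8% and 38.4% in wild type. Its log2 fold change of -0.10 did not pass the test (95% confidence interval -0.32 to 0.12, limma adjusted p = 0.408). The value was 0.33 after removing the length and GC trends (limma adjusted p = 0.0125) and -0.36 when column totals were made equal (limma adjusted p = 0.00618), and over 13 alternatives the adjusted p ran between 0.00618 and 0.960, so these data give Kif1c no direction. Kif1b, a carrier of mitochondria and vesicles, was at 12.3 and 15.2 FPKM in knockout and at 13.0 and 12.9 FPKM in wild type, with overlapping groups (log2 fold change 0.07, 95% confidence interval -0.19 to 0.34, limma adjusted p = 0.616). Its value was 0.58 after removal of the length and GC trends, where the adjusted p was lowest, at 0.000952, and the highest over 13 alternatives was 0.791.

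The Kif13 genes fell. Kif13a, which carries cargo such as the mannose-6-phosphate receptor between the Golgi and endosomes, was at 9.61 and 12.6 FPKM in knockout, against 28.5 and 29.6 FPKM in wild type (log2 fold change -1.32, SE 0.13, limma adjusted p = 8.86e-07). The groups were far apart, a ratio of 2.62 in favour of wild type, and the call held in each of 13 alternatives, with values between -1.57 and -0.92. Kif13b, a carrier for scaffold proteins such as Dlg1, was at 3.10 and 4.02 FPKM in knockout and at 7.13 and 6.62 FPKM in wild type (log2 fold change -0.80, SE 0.13, limma adjusted p = 0.000143). Its value was -0.26 after removing the length and GC trends (limma adjusted p = 0.0788), the highest adjusted p of its 13 alternatives, and the lowest was 1.64e-05. Kif16b, which moves early endosomes, was at 3.38 and 3.97 FPKM in knockout and at 3.03 and 3.16 FPKM in wild type (log2 fold change 0.19, 95% confidence interval -0.08 to 0.46, limma adjusted p = 0.205). After removing the length and GC trends it was 0.44 higher (limma adjusted p = 0.00399), while the highest adjusted p of its 12 alternatives was 0.914.

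Among the minus-end motors outside mitosis, Kifc2, known from axons and dendrites, was at 4.23 and 3.48 FPKM in knockout, against 10.2 and 11.5 FPKM in wild type, a ratio of 2.81 in favour of wild type (log2 fold change -1.29, SE 0.13, limma adjusted p = 1.23e-06). Its groups did not overlap, and the call held in each of 13 alternatives, with values between -1.51 and -0.84. Kifc3, which acts at adherens junctions and in apical transport of epithelia, was at 13.4 and 12.3 FPKM in knockout and at 9.71 and 9.01 FPKM in wild type (log2 fold change 0.42, SE 0.12, limma adjusted p = 0.00669). This call ended when column totals were made equal (0.18, limma adjusted p = 0.172) and when wild-type library 2 was left out (0.37, limma adjusted p = 0.105), and the lowest adjusted p of its 13 alternatives was 0.000312.

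The kinesin-1 heavy chains were carried by Kif5b, the form found in all tissues, which supplied 94.8% and 94.7% of their sum in knockout and 92.1% and 93.7% in wild type. It was at 27.2 and 34.1 FPKM in knockout and at 30.5 and 33.5 FPKM in wild type, with overlapping groups (log2 fold change -0.07, 95% confidence interval -0.33 to 0.20, limma adjusted p = 0.644). With equal column totals the value was -0.32 (limma adjusted p = 0.0219), and without wild-type library 2 it was near 0, with an adjusted p of 0.99976, the highest of 13 alternatives. The neuronal form Kif5a was at 0.640 and 0.901 FPKM in knockout, against 1.72 and 1.64 FPKM in wild type (log2 fold change -0.60, SE 0.13, limma adjusted p = 0.000871). It passed the filter through the wild-type libraries alone, and its value was -0.23 after removing the length and GC trends (limma adjusted p = 0.107), and the lowest adjusted p of its 12 alternatives was 0.000187. Kif5c, the other neuronal form, was at 0.868 and 1.005 FPKM in knockout and at 0.903 and 0.611 FPKM in wild type and was not tested.

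Of the 4 kinesin light chains, all tested, 1 was lower (25%) and 0 were higher, where 30.6% of all genes were lower and 35.2% higher. Their sum was 125 and 135 FPKM in knockout and 137 and 128 FPKM in wild type, 4.37 and 3.76 times the heavy chain sum in knockout and 4.13 and 3.58 times in wild type. Klc1 was the most abundant, at 76.1 and 87.8 FPKM in knockout and at 81.4 and 78.1 FPKM in wild type (log2 fold change 0.04, 95% confidence interval -0.19 to 0.26, limma adjusted p = 0.781, and -0.23 with equal column totals, where the adjusted p of 0.0527 was the lowest of 13 alternatives that reached up to 0.982). Klc2 was at 15.7 and 15.4 FPKM in knockout and at 19.3 and 16.4 FPKM in wild type (limma adjusted p = 0.176, and between 0.00407, with equal column totals, and 0.915 over 13 alternatives). Klc3 was at 22.2 and 20.97 FPKM in knockout and at 20.8 and 19.9 FPKM in wild type (limma adjusted p = 0.528), and 28.1% of its exon bases are shared with Ercc2 on the other strand, itself at 20.0 and 20.3 FPKM in knockout and 26.1 and 23.0 FPKM in wild type. Klc4 was lower, at 11.5 and 11.2 FPKM in knockout against 15.0 and 13.8 FPKM in wild type (log2 fold change -0.32, SE 0.11, limma adjusted p = 0.0247). Its call ended when wild-type library 1 was left out (-0.27, limma adjusted p = 0.254) or wild-type library 2 was (-0.37, limma adjusted p = 0.098), and its adjusted p over 13 alternatives ran between 0.000495 and 0.254.

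Kinesin-2, the motor of intraflagellar transport in cilia and of other cargo, had 1 of 3 tested genes called. Over all genes tested, 35.2% were called higher and 30.6% lower. Kif3a was at 11.1 and 14.9 FPKM in knockout and at 14.2 and 12.3 FPKM in wild type, with overlapping groups (log2 fold change -0.04, 95% confidence interval -0.34 to 0.27, limma adjusted p = 0.834). Kif3b, its usual partner, was at 6.42 and 7.18 FPKM in knockout and at 4.77 and 4.75 FPKM in wild type (log2 fold change 0.44, SE 0.12, limma adjusted p = 0.00669). That call ended when column totals were made equal (0.21, limma adjusted p = 0.107), when wild-type library 1 was left out (0.44, limma adjusted p = 0.0535) and when wild-type library 2 was (0.43, limma adjusted p = 0.0578), and its adjusted p over 13 alternatives ran between 0.000263 and 0.107. Kif3c, a mostly neuronal partner of Kif3a, was at 5.21 and 5.85 FPKM in knockout and at 6.42 and 6.84 FPKM in wild type (log2 fold change -0.23, limma adjusted p = 0.124). It was called lower when column totals were made equal (-0.45, limma adjusted p = 0.00321) and with median-ratio scaling (-0.25, limma adjusted p = 0.0439), and was at 0.15 after removing the length and GC trends, with an adjusted p of up to 0.449 over 13 alternatives. Exons of Kif3c share 35.3% of their bases with an antisense gene, 1110002L01Rik. Kif17, another kinesin-2 motor of neurons and cilia, stayed under 0.06 FPKM.

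**Figure D4:**
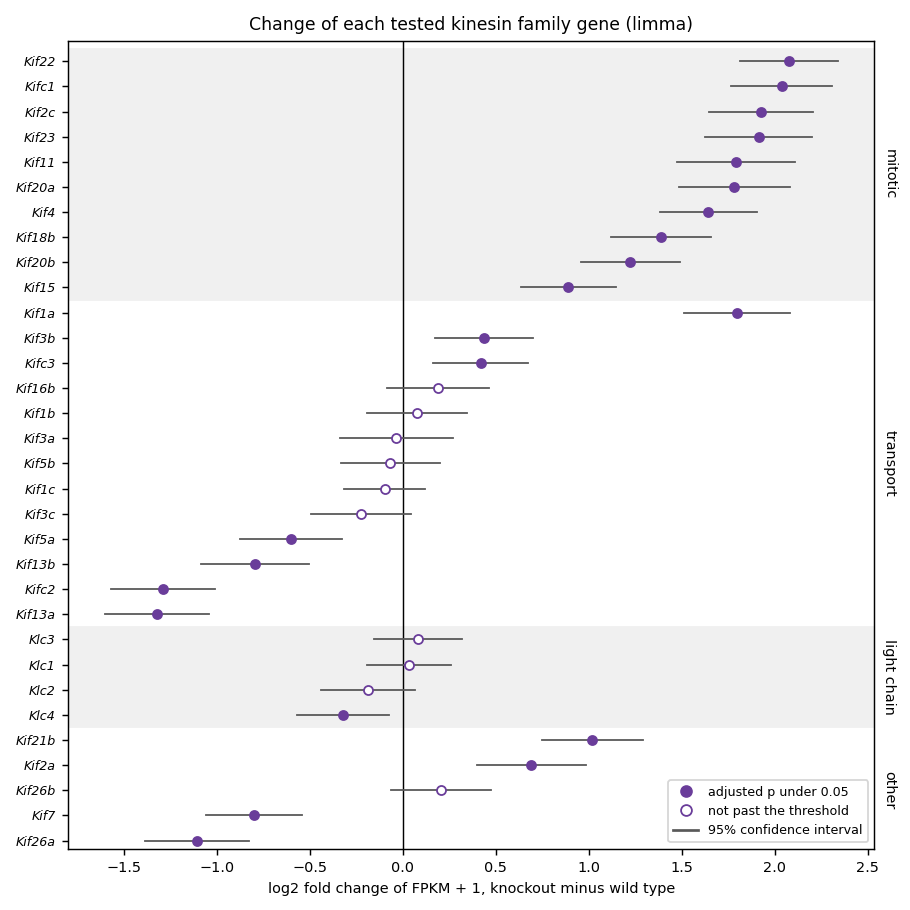
Log2 fold change of the 32 tested kinesin family genes, knockout minus wild type, with 95% confidence intervals from limma; filled points passed an adjusted p of 0.05. All 10 tested mitotic kinesins lie to the right of 0, at 0.89 to 2.08, while the 13 transport kinesins run between -1.32 and 1.80.

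Adaptors that link transport kinesins to their cargo were mixed. Of 20 tested, 5 were higher (25%) and 7 lower (35%), beside 35.2% and 30.6% of all genes, with a median log2 fold change of -0.02. After removing the length and GC trends 6 were higher and 3 lower, where 35.6% of all genes were higher and 29.3% lower. In the fit without a filter 3 of 21 were higher and 6 lower, where 26.3% of all genes were higher and 21.6% lower. Mapk8ip3, the JIP3 scaffold of kinesin-1, was at 29.3 and 30.04 FPKM in knockout, against 46.8 and 45.0 FPKM in wild type (log2 fold change -0.61, SE 0.10, limma adjusted p = 0.000137, and -0.06 after removing the length and GC trends). Mapk8ip1, the JIP1 scaffold, was at 12.2 and 11.1 FPKM in knockout and at 17.6 and 18.2 FPKM in wild type (log2 fold change -0.58, SE 0.11, limma adjusted p = 0.000519). Dtnbp1, dysbindin, was higher, at 36.9 and 39.5 FPKM in knockout and at 19.6 and 23.2 FPKM in wild type (log2 fold change 0.81, SE 0.11, limma adjusted p = 2.91e-05). Arl8a, a GTPase that recruits kinesin to lysosomes, was at 74.3 and 71.7 FPKM in knockout and at 54.8 and 53.3 FPKM in wild type (log2 fold change 0.43, SE 0.10, limma adjusted p = 0.00179). Its value was 0.18 after removal of the length and GC trends, where the adjusted p of 0.0949 ended the call. Smooth muscle markers were lower in 6 of 6 cases in the same libraries, beside 30.6% of all genes. Their part in the lower transport kinesins and adaptors was not tested.

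The other kinesins changed one by one. Kif26a, a kinesin without motor activity known from enteric neurons, was at 0.291 and 0.416 FPKM in knockout, against 2.18 and 1.67 FPKM in wild type, a ratio of 5.45 in favour of wild type (log2 fold change -1.11, SE 0.13, limma adjusted p = 5.47e-06). It passed the filter through the wild-type libraries alone, and its value was -0.47 after removing the length and GC trends (limma adjusted p = 0.00836, the highest of 12 alternatives). Its relative Kif26b, known from kidney development and Wnt5a signalling, was at 1.95 and 1.68 FPKM in knockout and at 1.52 and 1.36 FPKM in wild type (log2 fold change 0.20, 95% confidence interval -0.06 to 0.47, limma adjusted p = 0.164). Its value was 0.90 after removal of the length and GC trends, where the adjusted p was 7.66e-05, and the highest over 12 alternatives was 0.774. The groups were apart for both genes, in opposite directions. Kif7, which sits at the tip of the primary cilium and regulates Hedgehog signalling, was at 4.09 and 3.96 FPKM in knockout and at 7.84 and 7.70 FPKM in wild type (log2 fold change -0.80, SE 0.12, limma adjusted p = 4.96e-05). Its value was -0.46 after removal of the length and GC trends, and its adjusted p over 13 alternatives ran between 5.87e-06 and 0.00258. Of its exon bases 19.1% are shared with 9330171B17Rik on the other strand.

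Kif21b, a regulator of microtubule growth in neurons and lymphocytes, was at 2.55 and 2.91 FPKM in knockout, against 0.942 and 0.743 FPKM in wild type (log2 fold change 1.02, SE 0.13, limma adjusted p = 9.04e-06). It was under 1 FPKM in both wild-type libraries. Kif2a, which takes microtubules apart in spindles and in neurons, was at 8.40 and 10.9 FPKM in knockout and at 5.71 and 5.42 FPKM in wild type (log2 fold change 0.69, SE 0.14, limma adjusted p = 0.000529). Its 1.74-fold ratio was below that of each mitotic kinesin detected, and 19.2% of its exon bases are shared with Dimt1 on the other strand. The remaining 7 genes of the class, Kif6, Kif9, Kif12, Kif19a, Kif21a, Kif24 and Kif27, stayed under 0.6 FPKM in each library and were not tested. Of these, Kif21a was higher and Kif27 lower in the fit without a filter (log2 fold change 0.26 and -0.15, limma adjusted p = 0.0345 and 0.0247), where 26.3% of all genes were higher and 21.6% lower.

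**Figure D5:**
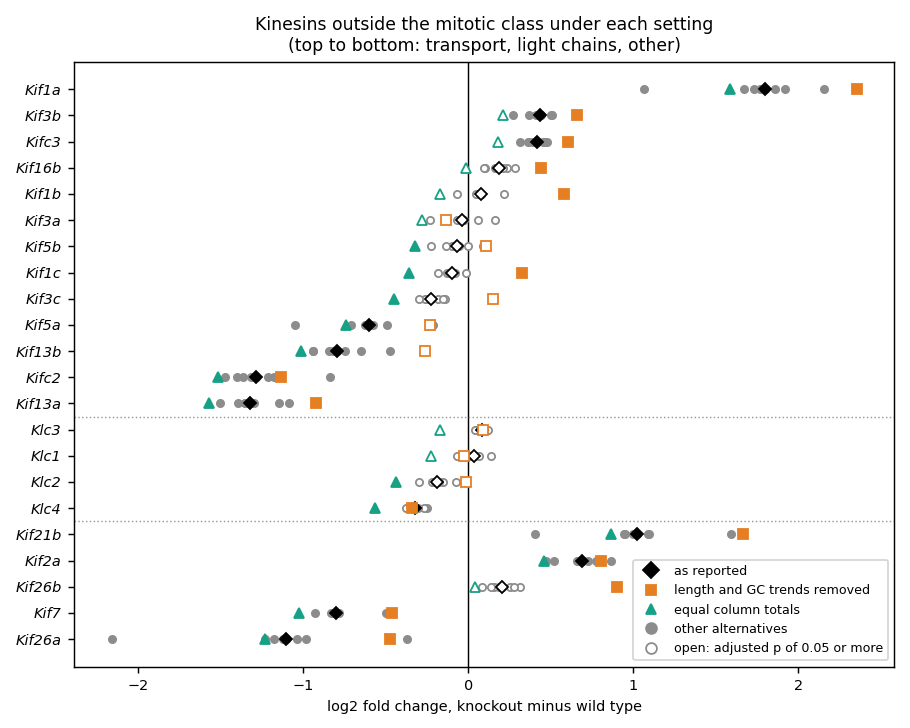
Log2 fold changes, knockout minus wild type, of the 22 tested kinesins outside the mitotic class under the reported setting (diamonds) and each alternative; filled symbols have an adjusted p under 0.05. Kif1a stays right of 0 and Kif13a and Kifc2 left of it throughout, whereas genes near 0 such as Kif1b and Kif1c lie right of 0 after removing the length and GC trends (squares) and left of it with equal column totals (triangles).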

How the data were processed

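RNA-seq of mouse aorta was deposited as 1 table of FPKM for each of 4 libraries, 2 GGPPS knockout and 2 wild type, which were grouped by the genotype label. Per the file headers the deposited values are FPKM, written there with the letters in another order. Per the labels' protocols, poly(A) RNA was selected with oligo-dT beads and made into Illumina libraries with random hexamers. Per the submitters' processing notes, the build was mm10 and the tools included featureCounts 1.5.0-p3, HISAT2 2.0.5 and DESeq2 1.16.1. Their roles and the use of strand were not given in the sources used here. Low values showed no common step that would give whole fragments (the most frequent ratio between libraries of a genotype covered 0.320% of 2188 genes in knockout and 0.302% of 1987 in wild type), so depth is unknown.

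From these tables log2(FPKM + 1) was computed and tested in R 4.3.3 by limma 3.58.1, with prior variances following mean intensity, after a filter of 1 FPKM in at least 2 libraries, with Benjamini-Hochberg adjustment over all 12314 genes and a threshold of 0.05. The procedure was tested on simulated data. Of a gene's 13.4 degrees of freedom 2 came from its own libraries. Nothing states that the libraries came from separate animals, so the p-values reflect only how much these 4 libraries vary, which may be partly technical. An exact permutation test of 2 against 2 cannot give a p under 0.333 and was not used. Members, classes, partner and marker lists were chosen with earlier results of these data known. All members could be named, with up to 4 called genes of each partner list by smallest p. General proliferation genes, genes that share exons or sequence with a member, Cenpe, Mapre1, Anln, Dctn6 and Dync1h1 were named after their values were seen. Transcript lengths, GC content and shared exon bases came from GENCODE M21 (GRCm38) and promoter sequences from RefSeq (GRCm38.p6), using the first listed start of each gene. Of 39 listed starts of members, 32 had the last 30 bases of the window in a GENCODE transcript on the same strand. Length and GC trends were removed from each library by loess (span 0.5) for the 96.3% of tested genes with a value. Other alternatives were pseudocounts of 0.1 and 5, no filter, a filter of 5 FPKM, equal column totals, median-ratio scaling, robust estimation, no intensity trend and leaving out each library.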

Additional observations from a re-analysis of the deposited data

How the results depend on the processing

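All 10 tested mitotic kinesins were called higher in each of the 12 or 13 alternatives in which they entered, and so was Kif1a, and Kif13a and Kifc2 were called lower in each of 13. Of those 10 mitotic kinesins, 8 were under 1 FPKM in both wild-type libraries, and of all tested genes like that 97.4% were called higher. All alternatives but the fit without a filter kept a filter of 1 FPKM or more, so the repeated calls add little. Under a filter of 5 FPKM, where 20 members remained, 7 were called higher, beside 3480 of 9179 genes, the number shrinking with the genes tested. The 3 mitotic kinesins that entered were called higher, but no mitotic wild-type value exceeded 1.26 FPKM, so they passed through knockout alone. With equal column totals 11 of 32 members and 7 of 13 transport kinesins were called lower, beside 5580 of 12314 genes. With length and GC trends removed 2 of 13 transport kinesins were called lower, where 29.3% of all genes were. The mitotic median of 1.79 was 2.73 and 0.76 with pseudocounts of 0.1 and 5, 2.04 under the filter of 5 FPKM and 1.62 with equal column totals, and 1.64 to 1.91 with 1 library left out. The transport median of -0.07 was -0.32 with equal column totals, 0.15 with length and GC trends removed, and -0.224 to 0.0899 with 1 library left out. With 1 library left out the lone library of that genotype is assumed to vary like the others, and counts over all genes were 3584 to 4427 higher and 3045 to 3996 lower. Of 404 comparisons of single members with an alternative, 373 kept direction and side of the threshold, 9 lost and 8 gained a call, and 14 changed sign in 8 genes, of which 1 was then past the threshold, Kif1c. With equal column totals Kif16b was at -0.0154, Klc3 at -0.17, Kif1b at -0.17 and Klc1 at -0.23. With length and GC trends removed Klc1 was at -0.0275, Kif5b at 0.11, Kif3c at 0.15 and Kif1c at 0.33. With 1 library left out Kif5b ran between -0.22 and 0.0899 (0.0899 without knockout library 1, 7.32e-05 without wild-type library 2), Kif3a between -0.23 and 0.16 (0.16 without knockout library 1, 0.06 without wild-type library 1), Kif1b between -0.0661 and 0.21, and Klc1 between -0.0669 and 0.14, both negative without knockout library 2. The cause of these changes was not tested. No paired analysis was possible because the labels number the libraries in 1 run across genotypes and give no shared animal, litter or day. With 2 libraries a genotype and unknown depth, differences among members under about 1 FPKM are the least certain.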

Other observations

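Cytoplasmic dynein, the motor that runs toward the other end of the microtubule, and its cofactor dynactin gave 9 higher and 4 lower genes of 25 tested, with a median log2 fold change of 0.10. These are 36% and 16% of the list, beside 35.2% higher and 30.6% lower over all genes. Single subunits moved apart. Dctn3, a small dynactin subunit, was at 50.1 and 48.0 FPKM in knockout and at 23.8 and 22.9 FPKM in wild type (log2 fold change 1.04, SE 0.10, limma adjusted p = 1.1e-06, and 0.65 with length and GC trends removed). Dctn6, another small subunit, was at 68.1 and 76.2 FPKM in knockout and at 107 and 124 FPKM in wild type (log2 fold change -0.67, SE 0.11, limma adjusted p = 9.08e-05, and -1.07 with length and GC trends removed). Both libraries of a genotype were clear of the other genotype for each of these subunits. Dync1h1, the heavy chain, was at 34.8 and 43.1 FPKM in knockout and at 29.6 and 30.8 FPKM in wild type (log2 fold change 0.35, SE 0.12, limma adjusted p = 0.0184, and 1.07 with length and GC trends removed). The call of Dync1h1 ended in the fit without a filter (limma adjusted p = 0.058). Dync1h1 has the longest transcript of the list, 14342 bases.

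Intraflagellar transport genes, which move with kinesin-2 in cilia, gave 4 higher and 8 lower genes of 20 tested, with a median log2 fold change of -0.25 and of -0.15 with length and GC trends removed. These are 20% and 40% of the list, beside 35.2% and 30.6% of all genes. With the trends removed 3 were higher and 6 lower, beside 35.6% and 29.3% of all genes. Without a filter 3 were higher and 5 lower, beside 26.3% and 21.6% of all genes. Ift81, a subunit that binds tubulin, was at 5.56 and 8.62 FPKM in knockout and at 12.6 and 13.4 FPKM in wild type (log2 fold change -0.82, SE 0.16, limma adjusted p = 0.000466, and -0.96 with length and GC trends removed). Ift20, which also works at the Golgi, was at 136 and 143 FPKM in knockout, against 80.4 and 86.3 FPKM in wild type (log2 fold change 0.74, SE 0.10, limma adjusted p = 1.64e-05, and 0.32 with length and GC trends removed). Of 5 markers of ciliated epithelium, which summed to 6.19 and 7.37 FPKM in knockout and to 3.86 and 5.53 FPKM in wild type, 1 was higher and 1 lower of 2 tested. Rsph1 was at 4.77 and 5.65 FPKM in knockout and at 1.42 and 2.84 FPKM in wild type (log2 fold change 1.02, limma adjusted p = 0.000212), and Ccdc39 was at 1.15 and 1.57 FPKM in knockout and at 2.08 and 2.16 FPKM in wild type (log2 fold change -0.41, limma adjusted p = 0.0135). Foxj1, Tekt1 and Dnah5 were too low to test, with Dnah5 at 0.0190 and 0.0349 FPKM in knockout and at 0.288 and 0.353 FPKM in wild type. The part of ciliated cells in these values was not tested.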
